A study of Mus musculus with 4 samples.

Results

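The Ube2 genes were taken as all protein-coding mouse genes whose symbol begins with Ube2 in RefSeq on GRCm38.p6 (mm10). There were 37 of them among 21887 protein-coding genes assigned to a chromosome, and by their names all but Ube2cbp encode ubiquitin-conjugating (E2) enzymes or proteins like them. Ube2cbp is named for binding the E2 enzyme UBE2C and also carries the symbol Ube3d. The study profiled open chromatin by ATAC-seq, in which the Tn5 transposase inserts adapters into accessible DNA, in bone marrow haematopoietic stem cells (HSCs) of wild-type C57BL/6 male mice of 8 weeks. The cells were sorted as LSK, which means that they carried Sca-1 and Kit but no lineage markers. They also lacked CD34, CD48 and Flt3 and carried Slam1, and they were split by CD93, a lectin-like surface receptor, into 2 CD93-positive and 2 CD93-negative libraries, with no other treatment. The marrow came from pooled femora and tibiae, and the labels do not say whether libraries came from separate mice, so a p-value measures only the spread between libraries, which may be technical.

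Ubiquitin is activated by an E1 enzyme, passed to an E2 enzyme and placed on a substrate with the help of an E3 ligase. The choice of E2 largely sets whether a single ubiquitin or a chain is built and which chain it is, and some E2 enzymes carry the related modifiers SUMO, NEDD8 or ISG15 in place of ubiquitin. In blood stem cells this system is known for controlling cell-cycle entry through the anaphase-promoting complex and cullin ligases, and for DNA crosslink repair through the Fanconi anaemia pathway, whose loss causes marrow failure.

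Each deposited file lists the summits of 1 library with a score, taken here as the −log10 of a p or q value that MACS2 writes. A gene was called listed when a summit lay within 1000 bp of either of its ends, and its highest-scoring summit was used. The lists held 21 and 711 summits in CD93-positive replicates 1 and 2, against 7989 and 2755 summits in CD93-negative replicates 1 and 2, and read depth is unknown for all 4. A missing summit therefore means not detectable in that list, not closed chromatin, and no scaling between libraries was applied to the scores. Few marker genes of cell identity were listed. Of 13 HSC marker genes only Tal1 and Lyl1 (15.4%) were listed, both in CD93-negative replicate 1 alone. None of 12 mature blood cell and 10 endothelial or stromal markers was listed in any library. Of all protein-coding genes, 32.2% were listed in CD93-negative replicate 1, above each of these marker shares, and 12.9% in replicate 2. In CD93-positive replicates 1 and 2 the shares of all genes were 0.0183% and 3.22%, so no listed marker is near them.

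The bases before the transcription start are shown for 6 Ube2 genes, from RefSeq on GRCm38.p6, each 5′ to 3′ on the strand of the gene. Ube2d3, Ube2n and Ube2s were listed in 3 libraries, including CD93-positive replicate 2. Ube2c and Ube2t, with roles in mitosis and crosslink repair, were listed in CD93-negative replicate 1 only, and Ube2r2 in none. The stretches are chr3:135437982-135438231 (Ube2d3, plus strand), chr10:95514912-95515161 (Ube2n, plus strand), chr7:4812341-4812590 (Ube2s, minus strand), chr2:164769679-164769928 (Ube2c, plus strand), chr1:134962315-134962564 (Ube2t, plus strand) and chr4:41135771-41136020 (Ube2r2, plus strand). Capitals mark matches on either strand to GGGCGG (bound by SP and KLF factors), CCGGAA (ETS), CCAAT (NF-Y), TGACG (the core of the cAMP response element), CACGTG (E-box), AAGATGGCG (YY1) and the NRF1 motif.
Ube2d3: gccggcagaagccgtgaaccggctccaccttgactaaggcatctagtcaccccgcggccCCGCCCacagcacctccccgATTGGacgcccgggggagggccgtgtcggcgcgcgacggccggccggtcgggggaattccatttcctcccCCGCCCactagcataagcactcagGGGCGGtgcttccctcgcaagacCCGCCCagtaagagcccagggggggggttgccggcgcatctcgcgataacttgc
Ube2n: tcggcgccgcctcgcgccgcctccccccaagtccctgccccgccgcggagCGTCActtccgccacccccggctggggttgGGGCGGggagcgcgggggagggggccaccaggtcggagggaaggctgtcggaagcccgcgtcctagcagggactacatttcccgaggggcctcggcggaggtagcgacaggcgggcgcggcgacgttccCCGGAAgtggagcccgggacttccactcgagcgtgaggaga
Ube2s: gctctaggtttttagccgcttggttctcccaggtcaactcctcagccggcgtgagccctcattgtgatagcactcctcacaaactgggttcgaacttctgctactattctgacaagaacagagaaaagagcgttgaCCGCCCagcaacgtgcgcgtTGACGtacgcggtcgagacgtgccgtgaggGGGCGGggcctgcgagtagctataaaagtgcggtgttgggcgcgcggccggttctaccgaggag
Ube2c: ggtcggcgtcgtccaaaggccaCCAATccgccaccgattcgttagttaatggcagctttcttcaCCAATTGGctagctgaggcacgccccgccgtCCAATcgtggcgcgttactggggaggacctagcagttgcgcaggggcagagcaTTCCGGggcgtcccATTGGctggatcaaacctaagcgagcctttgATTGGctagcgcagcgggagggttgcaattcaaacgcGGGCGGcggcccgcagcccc
Ube2t: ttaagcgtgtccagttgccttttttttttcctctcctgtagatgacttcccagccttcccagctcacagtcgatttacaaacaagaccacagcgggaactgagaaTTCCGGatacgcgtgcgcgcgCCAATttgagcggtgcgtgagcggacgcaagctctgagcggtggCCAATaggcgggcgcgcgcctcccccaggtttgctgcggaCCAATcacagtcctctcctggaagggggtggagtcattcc
Ube2r2: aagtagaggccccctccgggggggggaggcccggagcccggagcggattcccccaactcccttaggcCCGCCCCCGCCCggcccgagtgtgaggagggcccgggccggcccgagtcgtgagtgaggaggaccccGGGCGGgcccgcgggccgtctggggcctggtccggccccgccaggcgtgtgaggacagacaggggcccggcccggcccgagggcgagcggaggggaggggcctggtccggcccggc

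The 250 bases before Ube2d3 held 4 GGGCGG and 1 CCAAT match, and those before Ube2n held 1 GGGCGG, 1 CCGGAA and 1 TGACG match. Before Ube2s there were 2 GGGCGG matches and 1 TGACG match. Ube2c had 6 CCAAT matches, of which a pair on opposite strands overlapped, with 1 GGGCGG and 1 CCGGAA match. Before Ube2t there were 3 CCAAT matches and 1 CCGGAA match. Ube2r2, with no summit in any list, had 3 GGGCGG matches and no other. The matches are letters in these windows and not shown binding sites.

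More Ube2 genes were listed in each CD93-negative library than in either CD93-positive one, in the order of the lengths of the lists. None of the 37 was listed in CD93-positive replicate 1 and 3 in replicate 2, against 26 in CD93-negative replicate 1 and 6 in replicate 2. The shares were 0% (exact Clopper-Pearson 95% interval 0 to 9.49) and 8.11% (1.70 to 21.9) in CD93-positive replicates 1 and 2, against 70.3% (53.0 to 84.1) and 16.2% (6.19 to 32.0) in CD93-negative replicates 1 and 2. Over all protein-coding genes, 0.0183% and 3.22% were listed in CD93-positive replicates 1 and 2, against 32.2% and 12.9% in CD93-negative replicates 1 and 2. The share of Ube2 genes lay above that of all genes in the 3 longer lists, and the background fell inside the interval in CD93-positive replicate 2 and CD93-negative replicate 2 and below it in CD93-negative replicate 1. The intervals treat genes as independent and cover counting error only.

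The groups did not overlap in these shares, nor in those of all protein-coding genes. Those were 0.0183% and 3.22% in CD93-positive replicates 1 and 2, against 32.2% and 12.9% in CD93-negative replicates 1 and 2. The Ube2 shares averaged 4.05% ± 5.73 (SD, n = 2) in CD93-positive and 43.2% ± 38.2 (SD, n = 2) in CD93-negative libraries. The difference of -39.2 percentage points gave p = 0.333 in an exact permutation test over libraries (two-sided), the smallest p that 2 against 2 allows. It was -12.2 points without CD93-negative replicate 1 and -66.2 points without CD93-negative replicate 2. After subtraction of the share of other protein-coding genes within each library, the Ube2 share stood 2.44 ± 3.48 points higher in CD93-positive and 20.7 ± 24.7 points higher in CD93-negative libraries (SD, n = 2 each). That difference of -18.3 points gave an exact permutation p of 0.667, and it was -0.86 points without CD93-negative replicate 1 and -35.7 without CD93-negative replicate 2. After this subtraction the groups overlapped, with 4.90 points in CD93-positive replicate 2 and 3.30 points in CD93-negative replicate 2.

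**Figure D1:**
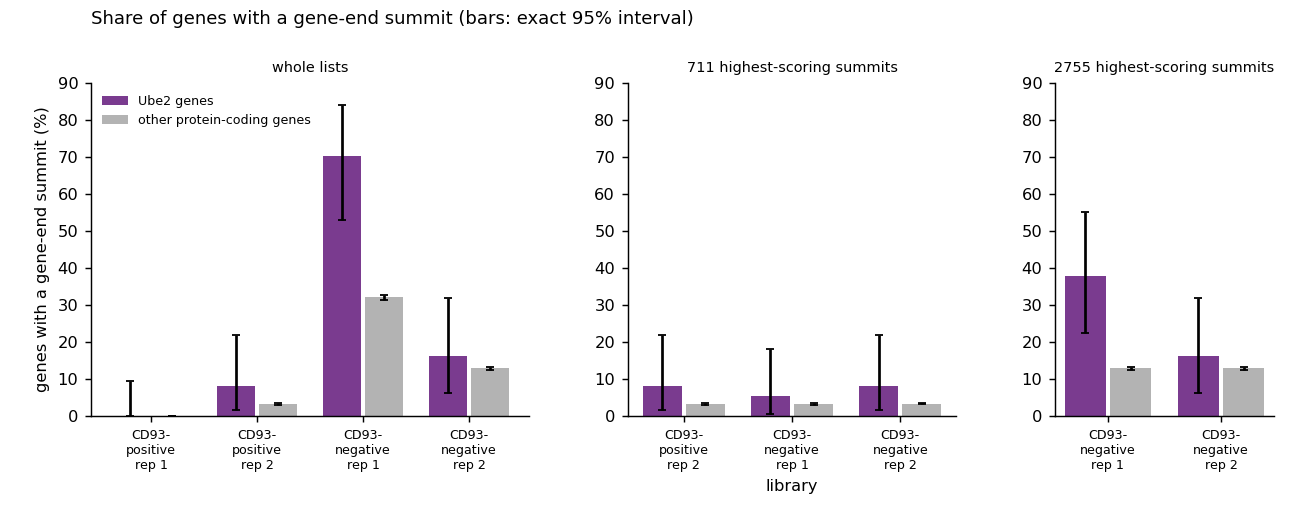
Share of genes with a gene-end summit (percent, vertical axis) by library, for the 37 Ube2 genes (purple) and all other protein-coding genes (grey), in whole lists and in lists cut to 711 or 2755 highest-scoring summits; error bars are exact 95% intervals. At 711 summits the Ube2 shares of 8.11%, 5.41% and 8.11% lie close together, while at 2755 summits CD93-negative replicate 1 reaches 37.8% and replicate 2 reaches 16.2%.

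At equal list lengths the counts of the CD93 fractions lay close together. With 711 summits per list, 3 Ube2 genes (8.11%) were listed in CD93-positive replicate 2, against 2 (5.41%, exact interval 0.66 to 18.2) in CD93-negative replicate 1 and 3 (8.11%) in CD93-negative replicate 2. The background at that length was 3.22% in CD93-positive replicate 2, against 3.28% and 3.38% in CD93-negative replicates 1 and 2. Ube2d3 and Ube2s were listed in all 3 lists so cut, and Ube2n in CD93-positive replicate 2 and CD93-negative replicate 2. With 1 CD93-positive list of this length there is no test, and intervals of this width do not show that the fractions are alike. With 21 summits per list no Ube2 gene was listed in any library, where the background was 0.0183% and 0% in CD93-positive replicates 1 and 2, against 0.0411% and 0.0228% in CD93-negative replicates 1 and 2.

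The CD93-negative libraries differed from each other at the same length. With 2755 summits each, 14 Ube2 genes (37.8%, exact interval 22.5 to 55.2) were listed in CD93-negative replicate 1 and 6 (16.2%, 6.19 to 32.0) in replicate 2, while the background was 12.9% in both. The 14 were Ube2c, Ube2d2a, Ube2d3, Ube2f, Ube2g1, Ube2h, Ube2k, Ube2n, Ube2q1, Ube2s, Ube2t, Ube2v1, Ube2w and Ube2z. The 6 were Ube2d2a, Ube2d3, Ube2f, Ube2m, Ube2n and Ube2s, of which Ube2m alone was outside the 14. These counts compare libraries of 1 group, not conditions.

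**Figure D2:**
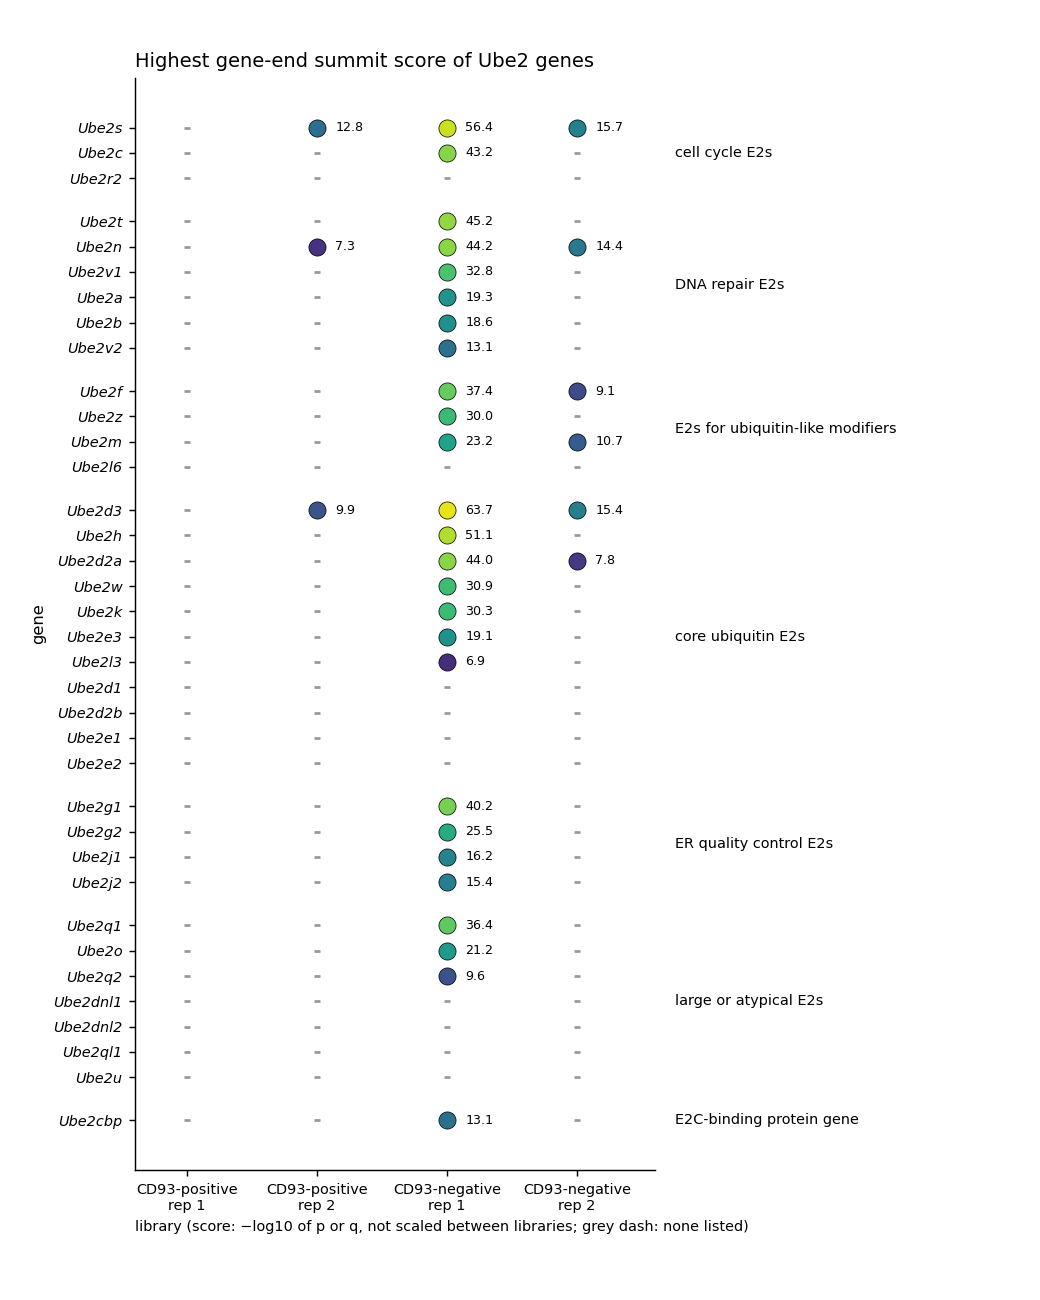
Highest gene-end summit score of the Ube2 genes drawn (rows, by role) in the 4 libraries (columns, CD93-positive left), with the score beside each point and point colour following it on a log scale; a grey dash means that no gene-end summit was listed. CD93-positive replicate 1 has no point, CD93-positive replicate 2 has 3, CD93-negative replicate 1 has 26 and CD93-negative replicate 2 has 6.

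The listed Ube2 genes were nested. All 3 of CD93-positive replicate 2 were among the 6 of CD93-negative replicate 2, and all 6 were among the 26 of CD93-negative replicate 1. Thus 3 genes were listed in 3 libraries, 3 in 2, 20 in 1 and 11 in none. Of all protein-coding genes, 32.2% were listed in CD93-negative replicate 1, so most were missing from the longest list. Nesting was usual for other genes too. Of other genes listed in CD93-positive replicate 2, 99.6% were also listed in CD93-negative replicate 1 and 86.3% in CD93-negative replicate 2, and of those listed in CD93-negative replicate 2, 98.5% were also listed in replicate 1.

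Among cell-cycle enzymes, Ube2s (gene ID 77891, chromosome 7, 4808014 to 4812340) was listed in 3 libraries. UBE2S extends the ubiquitin chains that the anaphase-promoting complex builds on mitotic substrates. Its summit scored 12.8 in CD93-positive replicate 2 and was missing in replicate 1, against 56.4 and 15.7 in CD93-negative replicates 1 and 2. By score this summit ranked 117 in CD93-positive replicate 2, against 686 and 448 in CD93-negative replicates 1 and 2, and no change is read from ranks in lists of such different lengths. It was the highest-scoring Ube2 gene in CD93-positive replicate 2 and CD93-negative replicate 2. The summits lay at 4812691 in CD93-positive replicate 2, against 4812663 and 4812756 in CD93-negative replicates 1 and 2, 351, 323 and 416 bp before the annotated start and so upstream of the bases printed for Ube2s. No other gene of the table ended within 1000 bp of them. Ube2c (chromosome 2, 164769929 to 164772902), whose product starts the chains that UBE2S extends, was listed in CD93-negative replicate 1 only, with a score of 43.2, 171 bp before its start. Ube2r2 (chromosome 4, 41136021 to 41193370), a paralogue of Cdc34 that works with cullin ligases, was listed nowhere. Its nearest summit in either CD93-negative library lay 11672 bp outside the gene and 10 bp from an end of Nol6.

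The DNA repair enzymes were all listed in CD93-negative replicate 1, and of these 6 Ube2n alone was also in CD93-positive replicate 2 and CD93-negative replicate 2. The background was 3.22% in CD93-positive replicate 2, against 32.2% and 12.9% in CD93-negative replicates 1 and 2. UBE2N pairs with the catalytically inactive partners UBE2V1 and UBE2V2 to build non-degradative chains used in DNA damage tolerance and inflammatory signalling. Ube2n (gene ID 93765, chromosome 10, 95515162 to 95545658) scored 7.28 in CD93-positive replicate 2 and was missing in replicate 1, against 44.2 and 14.4 in CD93-negative replicates 1 and 2. The summit ranked 435 of 711 in CD93-positive replicate 2, against 1275 of 7989 and 581 of 2755 in CD93-negative replicates 1 and 2. All 3 summits fell inside the printed bases, 76 bp before the start in CD93-positive replicate 2, against 220 and 153 bp before it in CD93-negative replicates 1 and 2, and this 144 bp spread was the widest of any Ube2 gene listed more than once.

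The partners of UBE2N had a single listing each, in CD93-negative replicate 1, with 32.8 for Ube2v1 and 13.1 for Ube2v2. Ube2t, which encodes the E2 enzyme of the Fanconi anaemia pathway, scored 45.2 in the same library, the highest among the repair enzymes, at a summit 22 bp before its start. Ube2a and Ube2b, mammalian counterparts of yeast Rad6 that act in replication past damaged DNA and in histone ubiquitination, scored 19.3 and 18.6 there.

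For Ube2b the gene-end rule left the stronger site out. The RefSeq span of the gene reaches 52004145 on chromosome 11, whereas both of its annotated start windows lie over 3 kb inside that end. A summit 114 bp from an annotated start scored 39.8 in CD93-negative replicate 1, and one 27 bp from it scored 13.3 in CD93-negative replicate 2. They lay 170 and 83 bp from an end of Cdkl3, so they cannot be assigned to a single gene. With starts used in place of gene ends, Ube2b was listed in both CD93-negative libraries and in neither CD93-positive one. In CD93-negative replicate 2 its summit ranked 710, so it also entered the list of that library at 711 summits, which then held 4 Ube2 genes.

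Of the enzymes that carry ubiquitin-like modifiers, those for NEDD8 were listed in both CD93-negative libraries. Over all protein-coding genes, 0.0183% and 3.22% were listed in CD93-positive replicates 1 and 2, against 32.2% and 12.9% in CD93-negative replicates 1 and 2. UBE2M and UBE2F place NEDD8 on cullins, which activates cullin ligases. Ube2m (chromosome 7, 13035120 to 13038275) was missing in both CD93-positive libraries, against scores of 23.2 and 10.7 in CD93-negative replicates 1 and 2. Ube2f (chromosome 1, 91249690 to 91286521) was likewise missing in both CD93-positive libraries, against 37.4 and 9.13 in CD93-negative replicates 1 and 2. The order of the genes thus differed between the CD93-negative libraries, with Ube2f above Ube2m in replicate 1 and below it in replicate 2. In CD93-negative replicates 1 and 2, Ube2m ranked 3539 and 1202 and Ube2f ranked 1809 and 1526. Neither gene was therefore listed there at 711 summits, the length of CD93-positive replicate 2. Ube2z, whose product is charged by the E1 enzyme UBA6, scored 30.0 in CD93-negative replicate 1 and was in no other list.

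Ube2l6, which encodes an interferon-inducible enzyme for ISG15, was listed nowhere by the gene-end rule. Its nearest summit lay 2081 bp outside the gene in CD93-negative replicate 1, beyond the 1000 bp window and 911 bp from an end of Smtnl1. Among listed Ube2 genes the summit farthest from its gene end was 526 bp away, at Ube2f in CD93-negative replicate 1, well inside the window.

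Among the core ubiquitin enzymes, the Ube2d paralogues were split. UBE2D proteins work with a broad range of E3 ligases. Ube2d3 (gene ID 66105, chromosome 3, 135438232 to 135468214) scored 9.95 in CD93-positive replicate 2 and was missing in replicate 1, against 63.7 and 15.4 in CD93-negative replicates 1 and 2. Its 63.7 was the highest score of any Ube2 gene in CD93-negative replicate 1. Its summit ranked 246 in CD93-positive replicate 2, against 469 and 483 in CD93-negative replicates 1 and 2. Its 3 summits lay within 60 bp of each other, 6 bp after the start in CD93-positive replicate 2, 14 bp after it in CD93-negative replicate 1 and 46 bp before it in CD93-negative replicate 2.

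Ube2d2a was missing in both CD93-positive libraries, against 44.0 and 7.83 in CD93-negative replicates 1 and 2, and Ube2d1 was listed nowhere, with its nearest summit 16866 bp away. The other core enzymes listed were in CD93-negative replicate 1 only, with scores of 51.1 for Ube2h, 30.9 for Ube2w, 30.3 for Ube2k, 19.1 for Ube2e3 and 6.89 for Ube2l3. UBE2H works with the CTLH ligase, a complex known in erythroid maturation, UBE2W modifies protein amino termini, and UBE2L3 serves ligases such as parkin. Ube2e1 and Ube2e2, both on chromosome 14, had no gene-end summit. The summit nearest to Ube2e1 was the same site in 3 libraries, 11555 bp away in CD93-positive replicate 2, against 11606 and 11577 bp in CD93-negative replicates 1 and 2, and it lay within 35 bp of an end of Nkiras1 in each.

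All 4 enzymes of endoplasmic reticulum quality control, which tag misfolded proteins at that membrane, were listed in CD93-negative replicate 1, where the background was 32.2%. None was in another library, where the background was at most 12.9% and so 0 of 4 is near it. The scores in CD93-negative replicate 1 were 40.2 for Ube2g1, 25.5 for Ube2g2, 16.2 for Ube2j1 and 15.4 for Ube2j2. Of the large or atypical enzymes, Ube2q1 (36.4), Ube2o (21.2) and Ube2q2 (9.60) were listed there alone. Ube2cbp scored 13.1 in the same library.

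Among the 11 Ube2 genes with no gene-end summit in any library were Ube2d1, Ube2d2b, Ube2dnl1, Ube2dnl2, Ube2e1, Ube2e2, Ube2l6, Ube2ql1, Ube2r2 and Ube2u. Absence was usual among all protein-coding genes, of which 32.2% were listed in CD93-negative replicate 1, the longest list. It is thus not a trait of these 11 genes in particular. Ube2d2b, Ube2dnl1 and Ube2dnl2 span only 1616, 930 and 929 bp. For Ube2dnl1 and Ube2dnl2, both on the X chromosome, the nearest summit of any list was 6070514 and 6073084 bp away, and for Ube2u it was 715055 bp away.

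The median score of listed Ube2 genes lay above that of other listed genes in the 3 longer lists. It was 9.95 over 3 genes in CD93-positive replicate 2, against 30.1 over 26 and 12.6 over 6 genes in CD93-negative replicates 1 and 2. Other listed genes had medians of 7.95 in CD93-positive replicate 2, against 23.9 and 10.1 in CD93-negative replicates 1 and 2. In CD93-negative replicate 1 the scores of Ube2 genes ran from 6.89 at Ube2l3 to 63.7 at Ube2d3.

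Recovery of CD93-negative replicate 1 genes by the shorter lists was compared by score. Of the 26 Ube2 genes listed there, 3 (11.5%, exact interval 2.45 to 30.2) were also listed in CD93-positive replicate 2, where the background was 9.95% of 7042 genes. In CD93-negative replicate 2, 6 (23.1%, 8.97 to 43.6) were also listed, where the background was 39.6% and lay inside the interval. Of the 6 Ube2 genes of CD93-negative replicate 2, 3 were in CD93-positive replicate 2, where the background was 21.5%.

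The genes of CD93-negative replicate 1 were split by score into 4 groups of near-equal size. In the highest group, with scores from 38.6 to 140.4, 3 of 8 Ube2 genes were also listed in CD93-positive replicate 2 and 4 of 8 in CD93-negative replicate 2, against 30.8% and 74.4% of other genes in the same 2 libraries. The 4 of this group missing from CD93-negative replicate 2 were Ube2c, Ube2g1, Ube2h and Ube2t. In the lower groups, no Ube2 gene was in CD93-positive replicate 2, and Ube2f and Ube2m were the only ones in CD93-negative replicate 2.

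**Figure D3:**
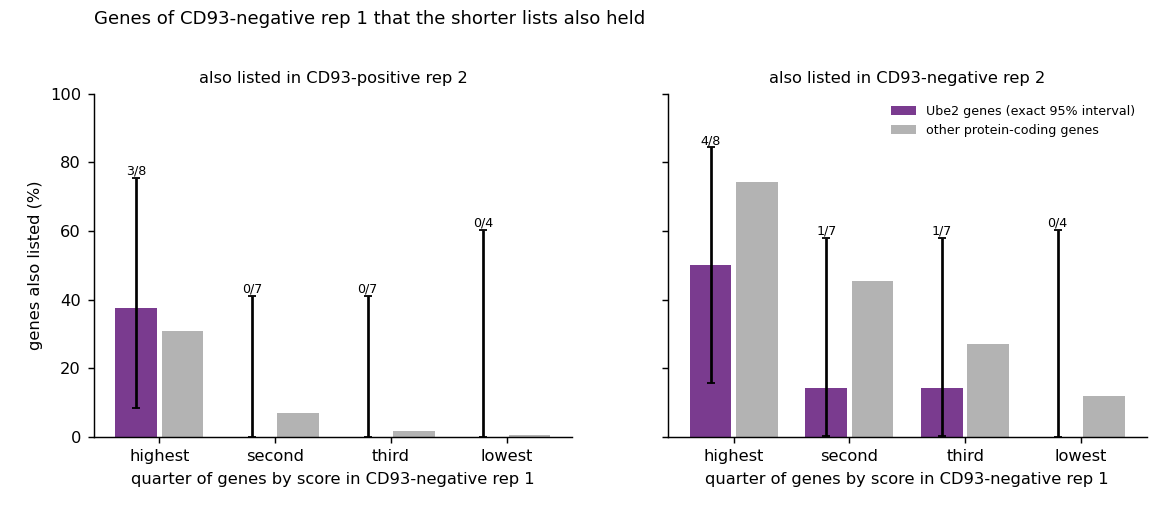
Percent of the genes listed in CD93-negative replicate 1 that were also listed in CD93-positive replicate 2 (left) and CD93-negative replicate 2 (right), by score in 4 near-equal groups, for Ube2 genes (purple, with counts and exact 95% intervals) and other protein-coding genes (grey). In the highest group 3 of 8 and 4 of 8 Ube2 genes were also listed in CD93-positive replicate 2 and CD93-negative replicate 2, and the intervals are wide throughout.

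Most Ube2 summits sat at annotated starts. Of the 37 genes, 30 had a start window in the RefSeq promoter table, and 20 of the 26 listed in CD93-negative replicate 1 were among them. In that library the summit lay within 100 bp of the nearest start for 14 of the 20 and within 250 bp for 18, with Ube2s and Ube2b as the exceptions, and 13 lay before the start and 7 after it. In terms of gene ends, 84.6% of Ube2 summits of CD93-negative replicate 1 lay within 250 bp, against 81.8% for other genes. The order was the reverse in CD93-positive replicate 2, with 66.7% of 3 Ube2 genes against 79.2% of others, and in CD93-negative replicate 2, with 66.7% of 6 against 78.8%. Where a Ube2 gene was listed in more than 1 library, its summits lay close together. The gene-end rule takes only summits within 1000 bp of a gene end, so nearness to starts and between libraries is partly set in advance. In CD93-positive replicate 2, all 3 Ube2 summits had one of CD93-negative replicate 1 no farther than 144 bp and one of CD93-negative replicate 2 no farther than 77 bp away. All 6 of CD93-negative replicate 2 lay within 93 bp of one of replicate 1. In the other direction, 3 of the 26 Ube2 summits of CD93-negative replicate 1 had one of CD93-positive replicate 2 within 250 bp and 6 had one of CD93-negative replicate 2. The same was not computed for other genes.

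**Figure D4:**
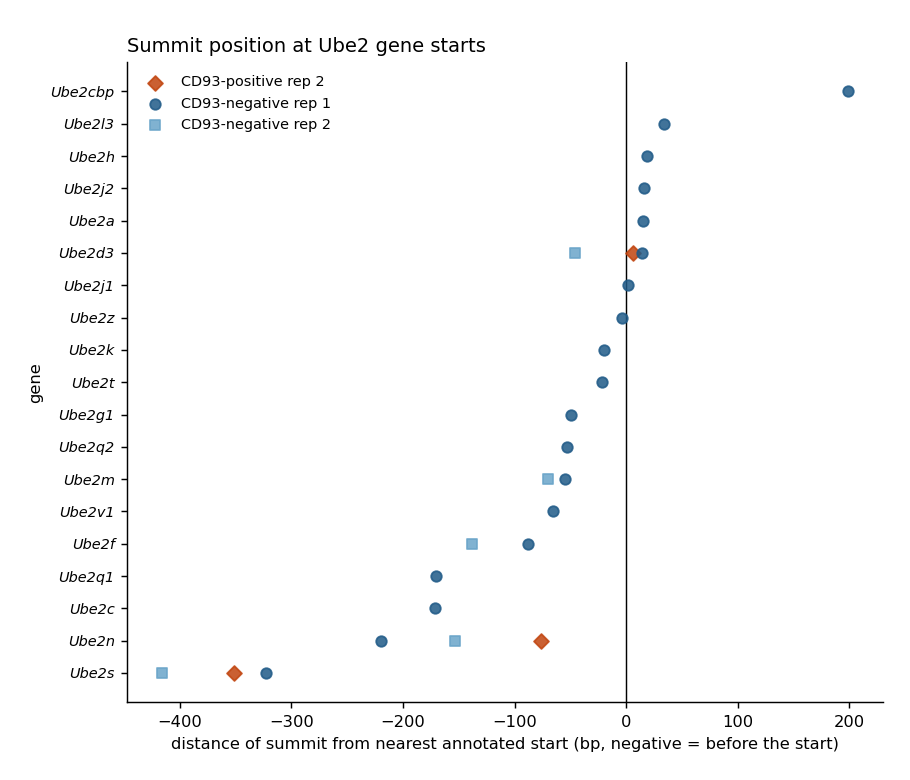
Distance of the gene-end summit from the nearest annotated start (bp, horizontal axis; negative is before the start) for the Ube2 genes (rows) with a start window, in CD93-positive replicate 2 (diamonds), CD93-negative replicate 1 (circles) and CD93-negative replicate 2 (squares). Ube2b, with its summit at -3472 bp, is off the axis and left out, 14 of 20 circles lie within 100 bp of the start, and the points of Ube2s lie 323 to 416 bp before it.

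By the gene-end rule, few Ube2 sites were shared with another protein-coding gene. In CD93-negative replicate 1, the summit of 1 of 26 Ube2 genes (3.85%) was within 1000 bp of the end of a second protein-coding gene, against 32.4% of 7016 other listed genes. That gene was Ube2k, whose summit lay 20 bp from its own end and 76 bp from an end of Smim14. The inner site of Ube2b, which lay 170 bp from an end of Cdkl3 in this library, is outside this count. The gene table itself showed a contrast in the same direction. Over all genes, 4 of 37 Ube2 genes (10.8%) and 24.8% of other genes had another protein-coding gene end within 1000 bp of their own. Among genes listed in CD93-negative replicate 1, these were 3 of 26 Ube2 genes (11.5%) and 43.6% of other genes. Counting lncRNA genes, the summits of Ube2q1 and Ube2v1 were nearer to an end of a neighbouring lncRNA, at 39 and 23 bp, than to their own gene end, at 170 and 51 bp.

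The number of CpG before the start varied widely among Ube2 genes. The 20 listed in CD93-negative replicate 1 had a median of 21 CpG in 250 bases (range 9 to 41) and the 10 not listed there had 17 (1 to 32). The lowest were Ube2dnl2 with 1, Ube2dnl1 with 4, Ube2u with 6 and Ube2d2b with 7, all unlisted. Other genes had medians of 18 where listed and 5 where not, and the median over all windows was 10. The GGGCGG letters, on either strand, were in 13 of the 20 listed and 5 of the 10 unlisted Ube2 windows, against 66.6% of other listed and 30.8% of other unlisted windows. CCGGAA was in 7 of the 20 and none of the 10, against 27.3% of other listed and 9.18% of other unlisted windows, and over all 17492 windows 15.2% held it. CCAAT was in 5 of the 20 and 4 of the 10, against 40.4% and 34.5% of the other windows. Over all windows, 42.7% held GGGCGG, 36.5% CCAAT and 20.2% TGACG, which was in 8 of the 30 Ube2 windows. TGACG was in 7 of the 20 listed and 1 of the 10 unlisted Ube2 windows, against 33.0% and 13.9% of the other windows. Of the motifs found less often, the NRF1 motif was in 3 of the 30 Ube2 windows and 5.32% of all, CACGTG in 2 and 6.65%, and AAGATGGCG in 2 (Ube2g1 and Ube2q1) and 0.67%. All these Ube2 windows were of genes listed in CD93-negative replicate 1. Among windows of other genes listed there, 11.1% held the NRF1 motif, 9.76% CACGTG and 1.59% AAGATGGCG. TGACGTCA, which contains TGACG, was in 1 Ube2 window (Ube2h) and 1.98% of all. The cell-cycle elements TTTGAA and TTCGAA were in 4 and 1 Ube2 windows, against 15.1% and 1.58% of all, and TATAAA was in 3, against 12.4%. All were searched on both strands.

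Genes that act around the E2 enzymes were listed in the same order of libraries. Of 66 such genes (E1 enzymes, E2 enzymes under other symbols, ligase partners and the modifiers themselves), none was listed in CD93-positive replicate 1 and 9 (13.6%) in replicate 2, against 51 (77.3%) and 26 (39.4%) in CD93-negative replicates 1 and 2. Over all protein-coding genes the shares in the same order were 0.0183%, 3.22%, 32.2% and 12.9%. At 711 summits per list there were 9 in CD93-positive replicate 2, against 12 and 8 in CD93-negative replicates 1 and 2, where the background was 3.22% in CD93-positive replicate 2, 3.28% in CD93-negative replicate 1 and 3.38% in CD93-negative replicate 2. The 9 of CD93-positive replicate 2 were the E1 genes Uba3 (score 5.14) and Uba6 (11.1), the E2 genes Cdc34 (10.1) and Birc6 (10.3), Anapc4 (8.20) and Fzr1 (8.65) of the anaphase-promoting complex and its activators, the cullin gene Cul4a (3.29), and Hltf (5.28) and Shprh (8.78), ligases that work with UBE2N in damage tolerance. All 9 were also in CD93-negative replicate 1, and all but Hltf in CD93-negative replicate 2.

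By ligase class, beside a background of 32.2% and 12.9% of all genes in CD93-negative replicates 1 and 2, 15 of 22 partners among the anaphase-promoting complex and cullin ligases were listed in CD93-negative replicate 1 and 8 in replicate 2, with Fzr1 at 136.2 and 23.5. All 14 repair and SUMO ligase partners were listed in CD93-negative replicate 1, among them Fancl (39.4), the ligase that works with UBE2T, and 5 in replicate 2. Of 10 E1 genes, 5 and 3 were listed in CD93-negative replicates 1 and 2, and Uba1, the main ubiquitin E1 gene, was in no list.

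Grouped by modifier, a grouping made after the values were seen, the NEDD8 genes were Nedd8, Uba3, Nae1, Ube2m and Ube2f. Of these 5, Uba3 alone was listed in CD93-positive replicate 2, against all 5 in each CD93-negative library. The background was 3.22% in CD93-positive replicate 2, against 32.2% and 12.9% in CD93-negative replicates 1 and 2. The count depends on the choice of genes, since Dcun1d1, which encodes a ligase for NEDD8, was in no list. With CD93-negative replicate 1 cut to 2755 summits, 2 of the 5 were listed there. At 711 summits, the length of CD93-positive replicate 2, neither Ube2m nor Ube2f was listed in either CD93-negative library. Of the 10 E1 genes, which include Uba3 and Nae1, 0 and 1 were listed at that length in CD93-negative replicates 1 and 2. None of the ISG15 genes Isg15, Uba7 and Ube2l6 was listed in any library.

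**Figure D5:**
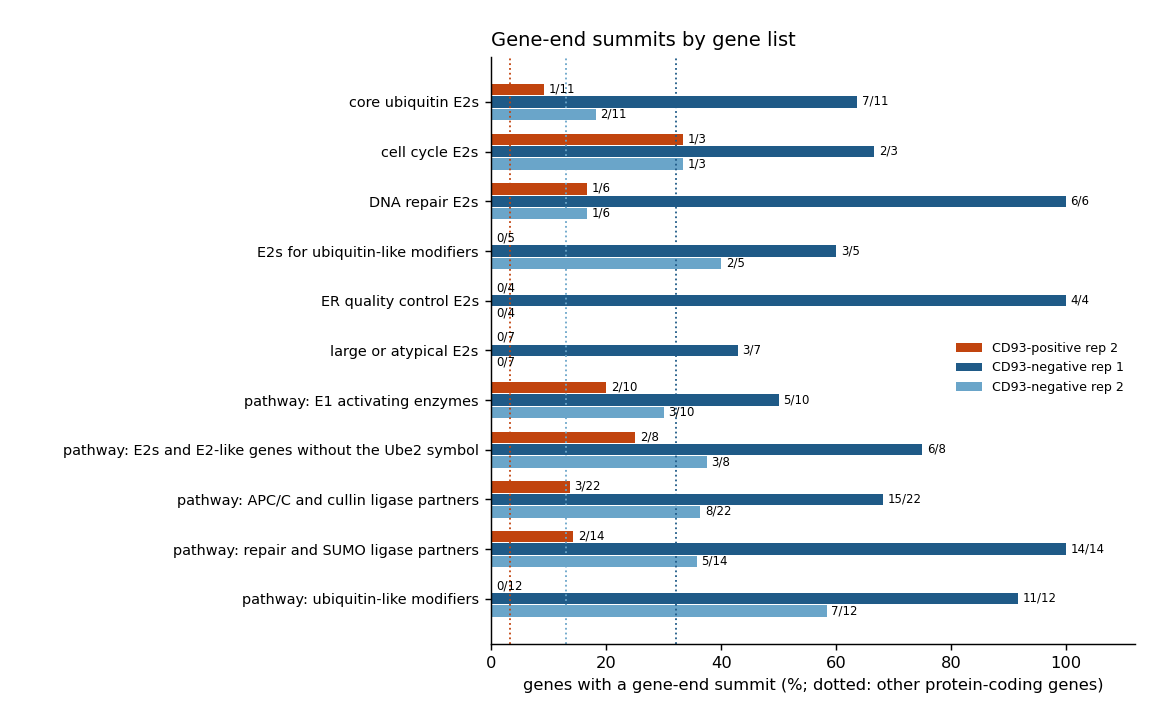
Percent of the genes of each list with a gene-end summit (horizontal axis, counts at the bar ends) in CD93-positive replicate 2 (red), CD93-negative replicate 1 (dark blue) and CD93-negative replicate 2 (light blue), with dotted lines at the share of other protein-coding genes in each library. All 6 DNA repair and all 4 endoplasmic reticulum quality control E2 genes were listed in CD93-negative replicate 1, and none of the quality control genes in the other libraries drawn.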

How the data were processed

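ATAC-seq summit lists of 4 libraries were used. The submitters' processing notes name Bowtie2, MACS2 and the build mm10, while versions, thresholds, read filters and any Tn5 shift were not given in the sources at hand. The deposited score of each summit is read as −log10 of p or of q, computed by the authors' caller within 1 library, so it served for ranking within a list. Each library has a list of its own, and read depth is unknown. Groups and replicates follow the sample titles, and the numbers in the summit names differ from them.

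Positions are 1-based. Python 3.11.15, numpy 2.4.6, pandas 2.3.3, scipy 1.17.1 and matplotlib 3.10.9 were used. Gene ends came from the RefSeq gene table and starts from the RefSeq promoter table, which held windows for 17492 protein-coding genes. The outermost start was used for sequence. Groups of libraries were set against each other by two-sided exact permutation, and gene shares carry exact Clopper-Pearson 95% intervals. Assignment was tested on simulated summits. The members and lists were chosen with earlier results of these data known. Genes described singly were members listed in a CD93-positive library, the 10 members with the highest lower score of the 2 CD93-negative libraries (only 6 had a score in both), all cell-cycle, repair and ubiquitin-like modifier enzymes, and pathway genes listed in a CD93-positive library. Unlisted members were taken as a group. Some items are not reported here, though counts include them. The other genes named, the inner site of Ube2b, the neighbouring genes and the grouping by modifier were added after their values were seen. Alternatives were windows of 500 and 2500 bp, gene bodies, starts only, score minimums of 5 and 10, merging of near summits, autosomes only, the nearest gene only, a replicate block, leaving out each library, and other sharing distances.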

Additional observations from a re-analysis of the deposited data

How the results depend on the processing

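Neither difference between the groups changed direction under the alternatives run. The exact permutation p of the difference after subtraction of other genes did change with the setting. It was 0.667 in the main setting. With a 2500 bp window, gene bodies, a score minimum of 10 or the nearest gene only it was 0.333, the smallest that 2 against 2 allows. The difference in the share of Ube2 genes, CD93-positive minus CD93-negative, was -39.2 points and ranged from -66.2 to -12.2 when 1 library was left out, and from -43.2 to -36.5 over the other settings. The difference after subtraction of other genes was -18.3 points, from -35.7 to -0.86 when 1 library was left out and from -21.7 to -15.7 otherwise. With a replicate block by the title numbers these were again -39.2 and -18.3, with exact permutation p of 0.5 and 1. The same-numbered libraries deviated with a correlation of 0.028 over 21887 genes. CD93-positive replicate 1 listed only 4 of these genes, so this value can neither show nor exclude pairing. The numbers were not taken as pairs in the main tests. Among counts at equal lengths, that of CD93-negative replicate 1 at 2755 summits ranged from 13 to 15 and that of replicate 2 from 6 to 8. The number of libraries listing a gene changed for Ube2f with a 500 bp window, among others for Ube2l6 with 2500 bp and for Ube2b with gene bodies or with starts only. A score minimum of 10 removed 1 or more listings of Ube2d2a, Ube2d3, Ube2f, Ube2l3, Ube2n and Ube2q2, and left Ube2s alone in CD93-positive replicate 2. With summits called shared within 100 bp in place of 250, 2 of the 3 Ube2 summits of CD93-positive replicate 2 had a partner in CD93-negative replicate 1. Unknown read depth limits all comparisons between libraries, since a gene missing from a short list may only have fallen under its threshold.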
